A study of Mus musculus with 25 samples.

Results

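The Hist1 gene cluster of the mouse lies in 2 blocks on chromosome 13, and the contacts of these blocks were followed through fibroblasts, cells on the way to induced pluripotency and embryonic stem (ES) cells. The blocks span chr13:21700001-22080000, which holds 38 bins of 10 kb, and chr13:23530001-23780000, which holds 25, in the mm10 build named in the submitters' processing notes. A contact belonged to the cluster when at least one of its bins lay in a block. By this rule 955 entries of the 9 deposited contact lists, out of 912901 in all, belonged to the cluster, and they described 291 distinct bin pairs. RefSeq (GRCm38.p6, the same assembly as mm10) places 52 protein-coding histone genes in the blocks, 23 in the first and 29 in the second: 6 of the H1 family, 12 of H2A, 14 of H2B, 9 of H3 and 11 of H4.

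Contacts were measured in 25 libraries of 9 groups. Hi-C ligates DNA that is near in space inside the nucleus and sequences the junctions, and HiChIP adds an antibody step that keeps only junctions bound by a chosen protein or mark. Fibroblasts (MEFs) were prepared from E13.5 embryos that carried 1 copy each of an Oct4-GFP reporter, a cassette of the 4 reprogramming factors (OKSM) and the doxycycline-responsive activator rtTA3, and all MEF and reprogramming groups share this genotype. MEFs at passage 3 were profiled by H3K27ac HiChIP (2 libraries) and Hi-C (2 libraries). The same kind of cells kept in doxycycline and ascorbic acid gave the KLF4 HiChIP groups of day 3 (3 libraries, bulk culture) and day 6 (4 libraries, sorted for the surface antigen SSEA1), so that day and sorting cannot be told apart. V6.5 ES cells in 2i medium gave KLF4 HiChIP (4 libraries), H3K27ac HiChIP (2 libraries) and Hi-C (2 libraries). Cells labelled TKO, of the V6.5 line and in 2i medium, gave H3K27ac HiChIP without doxycycline (0 h, 3 libraries) and after 24 h of it (3 libraries). The labels do not explain the abbreviation, and both TKO groups carry whatever change it stands for.

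Replication-dependent histone genes are short, lack introns as a rule, and are transcribed at high rates while DNA is copied, when each new genome has to be packed into nucleosomes. Their promoters are known for TATA boxes and CCAAT boxes, and the active genes gather in nuclear bodies where their messages are made and trimmed. H3K27ac marks active promoters and enhancers, and KLF4 is a zinc finger factor of the reprogramming set that binds CACCC-type motifs. Transfer RNA (tRNA) genes, which RNA polymerase III reads, lie among the histone genes of this region in large numbers.

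The promoter windows of 5 histone genes are shown because their bins carry the contacts on which the results below turn. H1f2, a linker histone gene, and the pair H3c3 and H2bc3 sit in neighbouring bins whose contact changed most between MEF and ES cells. H4c8 and the linker histone gene H1f3 sit in the bins of 1 of the 2 contacts that all 9 lists held. The windows run from 250 bases before to 50 bases after the start of the gene in RefSeq GRCm38.p6, 5′ to 3′ along the gene, with capitals for 3 motifs on either strand: the TATA box as TATAAA, the CCAAT box by its name, and the core of KLF sites as CACCC. They lie at chr13:23738557-23738856 on the + strand, chr13:23745472-23745771 on the - strand, chr13:23746484-23746783 on the + strand, chr13:23530794-23531093 on the + strand, and chr13:23554782-23555081 on the + strand.
H1f2: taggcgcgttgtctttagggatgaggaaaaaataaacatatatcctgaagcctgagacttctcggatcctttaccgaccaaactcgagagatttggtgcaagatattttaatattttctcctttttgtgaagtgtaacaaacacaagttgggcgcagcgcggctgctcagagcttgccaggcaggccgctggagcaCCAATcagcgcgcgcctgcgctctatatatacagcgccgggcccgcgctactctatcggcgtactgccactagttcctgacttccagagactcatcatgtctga
H3c3: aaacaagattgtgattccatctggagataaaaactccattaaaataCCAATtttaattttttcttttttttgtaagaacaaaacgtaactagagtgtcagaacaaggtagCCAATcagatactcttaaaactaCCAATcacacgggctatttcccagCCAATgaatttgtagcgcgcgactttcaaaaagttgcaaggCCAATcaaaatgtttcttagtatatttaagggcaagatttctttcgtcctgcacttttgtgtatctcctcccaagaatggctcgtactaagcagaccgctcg
H2bc3: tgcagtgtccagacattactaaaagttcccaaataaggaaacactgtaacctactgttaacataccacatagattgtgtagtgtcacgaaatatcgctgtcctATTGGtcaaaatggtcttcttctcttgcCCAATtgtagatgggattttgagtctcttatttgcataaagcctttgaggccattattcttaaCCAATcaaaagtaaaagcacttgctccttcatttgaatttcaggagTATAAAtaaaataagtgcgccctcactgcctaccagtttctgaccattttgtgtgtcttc
H4c8: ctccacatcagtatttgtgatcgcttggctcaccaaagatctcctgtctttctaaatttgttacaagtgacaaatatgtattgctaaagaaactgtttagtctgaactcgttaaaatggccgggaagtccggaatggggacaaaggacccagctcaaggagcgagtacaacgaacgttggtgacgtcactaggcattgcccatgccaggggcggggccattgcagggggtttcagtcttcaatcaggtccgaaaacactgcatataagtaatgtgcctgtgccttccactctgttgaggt
H1f3: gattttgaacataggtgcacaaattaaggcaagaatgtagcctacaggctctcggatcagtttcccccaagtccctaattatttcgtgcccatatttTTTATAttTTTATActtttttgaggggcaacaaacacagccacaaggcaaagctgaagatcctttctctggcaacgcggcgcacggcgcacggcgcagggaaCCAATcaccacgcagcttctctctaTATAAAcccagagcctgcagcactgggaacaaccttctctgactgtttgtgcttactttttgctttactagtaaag
H1f2 held 1 CCAAT, H3c3 held 5, and H2bc3 held 3 beside 1 TATAAA. H1f3 held 3 TATAAA, which include matches on the opposite strand, and 1 CCAAT. H4c8 held none of the motifs in these letters. Over the 50 windows of 49 matched histone genes, 84.0% held CCAAT, against 37.4% of all 32851 mouse promoter windows of the same length. TATAAA stood in 58.0% of the histone windows and 13.6% of all windows, and CACCC in 26.0% and 57.5%. By family, CCAAT was in 100% of the windows of H1, H2A, H2B and H3 genes and in 27.3% of the 11 windows of H4 genes. A match describes letters only and shows no binding.

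HiChIP libraries held 48.7 to 181 M contacts (M for 1000000), and the total depth of the Hi-C libraries is unknown because their lists give only the counts of listed pairs. The deposited HiChIP value, CPM, is the count scaled to 1000000 contacts of the same chromosome, and 1 CPM stood for a few counts, so single pairs carry wide counting errors. The labels do not say whether replicate libraries came from separate cultures or embryos, so p-values measure the spread between libraries, which may be technical. The cell types were checked by the number of listed H3K27ac pairs at bins that the deposited annotation ties to marker genes. The 5 annotated pluripotency markers (Nanog, Sall4, Dppa5a, Mycn, Zfp42) had 1 pair in all in MEF and 96 in ES cells, while the 4 annotated fibroblast markers (Thy1, Col1a1, Vim, Pdgfrb) had 32 in MEF and 1 in ES cells. In the TKO lists the pluripotency markers had 80 pairs at 0 h and 74 at 24 h, and the fibroblast markers 6 and 4. In Hi-C the pluripotency markers had 5 pairs in MEF and 15 in ES cells. The fibroblast markers had 20 in MEF Hi-C and 26 in ES Hi-C, so they did not mark MEF there. The check thus covers the H3K27ac groups.

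Contacts were dense within each block and none joined the blocks. In ES cells the H3K27ac list held 115 of the 703 possible pairs within the first block (16.4%) and 52 of the 300 within the second (17.3%). In MEF it held 20 (2.84%) and 34 (11.3%). The TKO lists were like that of ES cells, with 145 and 49 pairs at 0 h and 115 and 51 at 24 h. The KLF4 lists held 46 and 18 at day 3, 3 and 1 at day 6, and 23 and 11 in ES cells, and the Hi-C lists held 46 and 26 in MEF and 82 and 20 in ES cells. Of the 950 possible pairs between the blocks, 0 were listed in any of the 9 lists. The blocks lie at least 1460 kb apart, and at that distance or beyond the 9 lists held no more than 4 pairs each over the whole genome, so that the lists say little about contacts between the blocks.

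The density was set beside the rest of chromosome 13 at the same distances of 10 to 100 kb. In ES H3K27ac 29.0% of the possible pairs within blocks were listed, against 2.56% elsewhere on the chromosome, a ratio of 11.3. In MEF H3K27ac the values were 10.2% and 2.92%, a ratio of 3.49. The ratio was 11.2 for TKO at 0 h and 11.0 at 24 h, 12.7 for KLF4 at day 3, 6.02 at day 6 and 6.92 in ES cells. It was 1.91 in MEF Hi-C and 2.04 in ES Hi-C. The blocks thus exceeded the rest of the chromosome in every list, least in Hi-C, and these ratios describe single lists that have no replicates. A bar for each list in the plot of contact density shows the same values. The MEF libraries of H3K27ac were shallower (75.0 and 105 M contacts) than those of ES cells (166 and 168 M), and the part of depth in the number of listed pairs was not tested. Chromosome 13 as a whole had more listed pairs in MEF (3676) than in ES cells (3249).

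**Figure D1:**
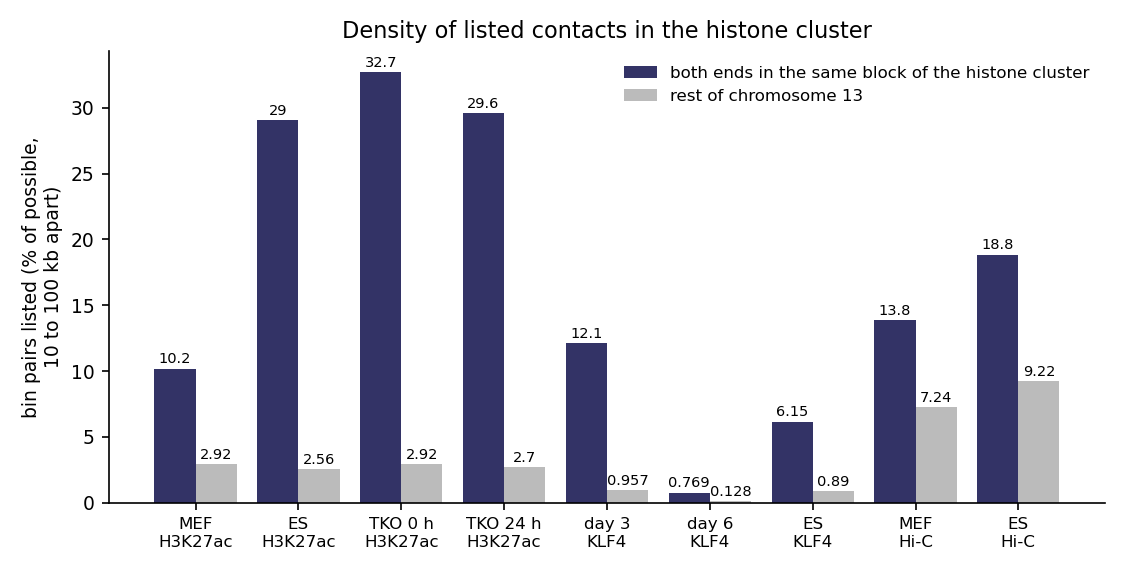
Share of possible bin pairs 10 to 100 kb apart that each list holds (y axis, percent), for pairs with both ends in the same block of the histone cluster (dark bars) and for the rest of chromosome 13 (grey bars). The ES H3K27ac list reaches 29.0% in the blocks against 2.56% elsewhere, while the MEF H3K27ac list reaches 10.2% against 2.92%.

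The blocks differed in the bins that held the most contacts. In the first block the bins with the most HiChIP pairs held tRNA genes and no histone gene start. The bins that start at 21970001, 21920001 and 22020001 had 64, 57 and 57 pairs summed over the 7 HiChIP lists, with 2, 3 and 4 tRNA genes. In the second block the leading bins held histone genes: the bin at 23530001 (H4c8, H2ac10, H3c8) had 69, that at 23580001 (H4c4, H2bc6) had 54, and that at 23550001 (H4c6, H1f3) had 49. Bins without tRNA genes between the tRNA bins varied: those at 21860001 and 21960001 had 42 and 45, and those at 21950001 and 21980001 had 16 and 15. The part of position in the block was not tested. A histone bin of the first block had 4 ES H3K27ac pairs on average (9 bins, of which 2 had no pair in any list). A tRNA bin had 10.1 (14 bins) and a bin with neither 3.53 (15 bins). A histone bin of the second block had 7.85 (13 bins), against 2.00 in its 12 bins without histone or tRNA genes. In MEF the same averages were 0.333, 2.21 and 0.4 in the first block, and 3.38 and 2.17 in the second.

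In the second block Hi-C placed more of its contacts elsewhere. The bin at 23740001 (H3c3, H2bc3) had 14 pairs in ES H3K27ac and 0 in both Hi-C lists, and so did the bins at 23750001 (H2ac4, H3c2, H4c2) and 23760001 (H4c1, H3c1, H1f1), with 3 and 4 pairs in ES H3K27ac and 0 in Hi-C. A histone bin of the second block had 1.31 pairs on average in ES Hi-C, and a bin without histone or tRNA genes 2.25, the reverse order of ES H3K27ac. All tRNA bins of the blocks lie in the first block, and there tRNA bins exceeded histone bins in both assays. In ES Hi-C a histone bin of the first block had 0.556, a tRNA bin 7.21 and a bin with neither 3.87. The order of histone bins and bins with neither thus reversed in this block too. In ES H3K27ac they had 4 and 3.53, which lie close together. Over both blocks a histone bin had 1.00 pair in ES Hi-C and 6.27 in ES H3K27ac. Histone to histone pairs made up 20.6% of the cluster pairs in ES H3K27ac (39 pairs) and 2.83% in ES Hi-C (3 pairs). Pairs between bins with neither histone starts nor tRNA genes made up 3.70% and 18.9%. Hi-C lists were filtered at other limits, so the shares describe lists, and their difference was not tested. The lists nonetheless overlapped: 61.3% of the ES Hi-C cluster pairs were also in the ES H3K27ac list, which is 34.4% of the latter, against 12.1% and 51.2% for the whole lists.

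**Figure D2:**
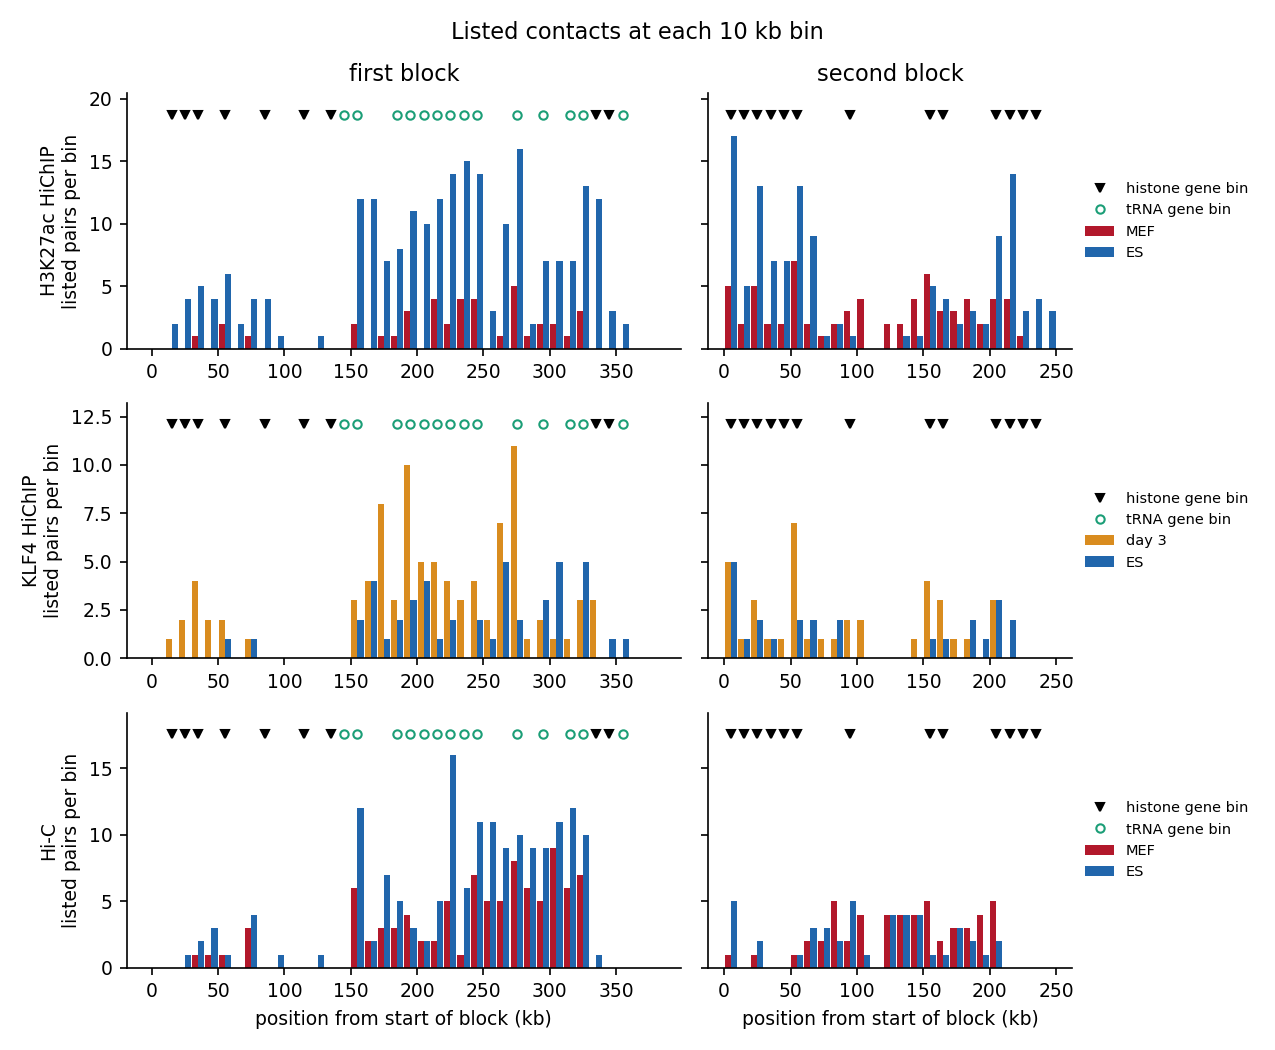
Number of listed pairs at each 10 kb bin (y axis) along the first block (left) and the second block (right), by distance from the start of the block in kb, for H3K27ac HiChIP, KLF4 HiChIP and Hi-C. Triangles mark bins with a histone gene start and open circles bins with tRNA genes only. Pairs in the first block gather over the stretch that holds most tRNA bins, and ES H3K27ac pairs in the second block gather over histone bins toward its ends. In ES KLF4 and MEF Hi-C the highest bins of the first block include bins without tRNA genes. There Hi-C has 0 pairs at the bins from 23740001 to 23760001, but 5 in ES cells at the bin at 23530001.

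Of the 63 bins in the blocks 7 had no listed pair in any list. They include the histone bins at 21810001 (H2bc23, H2ac23, H4c17) and 21830001 (with H4c18 and H2ac24). Histone genes of a family are near-identical in sequence, and how reads that match several copies were treated is not given in the sources used here, so values at histone bins are uncertain in this respect. The deposited TKO annotation covers only bins with a listed TKO H3K27ac pair, so its bins were selected by such contacts. In it all 20 annotated histone bins carried an H3K27ac peak at 0 h and at 24 h. All 13 annotated tRNA bins carried one at 0 h and 11 at 24 h, and of the 21 other annotated bins 11 did at 0 h and 9 at 24 h.

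Contacts that left the second block went in 1 direction. In all, 96 entries of 7 lists joined the second block with a bin outside, and every such bin lay before the block, between 23400001 and 23530000, on the side of the first block. After the block end, where most of Trim38 and the transporter genes Slc17a1 to Slc17a4 lie, there were 0. The outside bins held tRNA genes in 97 of the 98 outside entries of both blocks. These entries came from 12 distinct outside bins, and all but 1 of these held tRNA genes. Only bins with a listed pair enter this count, so it cannot show whether tRNA bins were preferred within this stretch. The leading ones were the bins at 23430001 (6 tRNA genes and C230035I16Rik) with 20 entries, 23420001 (4 tRNA genes and Abt1, a gene for a basal transcription activator) with 19 and 23510001 (5 tRNA genes) with 18. The bin at 23530001, with H4c8, H2ac10, H3c8 and 1 tRNA gene, directly follows this stretch and took 42 of the 96. By list there were 2 such pairs in MEF H3K27ac, 22 in ES H3K27ac, 36 and 27 in TKO at 0 h and 24 h, 2 and 3 in KLF4 at day 3 and in ES cells, and 4 in ES Hi-C. Day 6 KLF4 and MEF Hi-C had 0. The exception to the tRNA bins was a pair of ES Hi-C with the bin of Btn2a2, a butyrophilin gene.

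The first block reached outside in 1 list only. TKO at 0 h held 2 such pairs, from the tRNA bins at 21910001 and 21920001 to the tRNA bin at 23510001, which lies just before the second block. The pair from 21920001 had CPM values of 3.13, 6.27 and 3.20 in the 3 libraries, from 16, 25 and 12 counts, and a deposited FDR of 0.000203. The pair from 21910001 had 3.33, 3.01 and 4.27, from 17, 12 and 16 counts, and a deposited FDR of 0.0382. Of the 6 values 5 lay between 3.01 and 4.27 CPM, near the lower limit of 3 CPM at which pairs were listed, and these were the only 2 pairs of the whole TKO 0 h list at 1460 kb or more. Vomeronasal receptor genes and pseudogenes of the Vmn1r family, 75 in all, touch 66 bins from the last part of the first block onward. The 119 bins from 22080001 to 23270000, where the last of these genes ends, had 9 listed pairs of any kind in ES H3K27ac and 1 in MEF.

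Domains called by the authors from Hi-C divided the region more finely in ES cells. In MEF 1 domain ran from 21160001 to 23760000 and a second from 23760001 to 24320000. In ES cells the domains met the blocks at 21800000, 22040000 and 23760000, and the stretch from 21800001 to 22040000 formed a domain of 240 kb. At the ES edge at 21800000, 0 of the 115 ES H3K27ac pairs within the first block crossed, and at 22040000 there were 3. In MEF 0 of 20 crossed either place, although its domain had no edge there. The 2 bins after 21800000 are among those with no listed pair in any list. At 23760000, an edge in both cell types, 5 of the 52 ES H3K27ac pairs within the second block crossed, the strongest at 24.5 CPM, and 0 of 34 did in MEF. Each domain list is a single call without replicates.

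Among the other genes of the region is Zfp184, which encodes a zinc finger protein and lies in the first block. It touches the tRNA bin at 21940001 and the bins at 21950001 and 21960001. It had 24 pairs in ES H3K27ac, 11 in KLF4 at day 3, 6 in ES KLF4, 15 in MEF Hi-C and 28 in ES Hi-C. In each of these lists this was the most of these genes. In MEF H3K27ac it had 4, fewer than Hfe. Hfe, an iron regulator gene in the second block, had 6 in MEF H3K27ac and 5 in ES H3K27ac. Prss16, a thymus protease gene, had 2 and 7, and Pom121l2 had 1 and 2. Abt1 had 0 in MEF and 5 in ES H3K27ac, and the milk fat gene Btn1a1 had 0 and 2. None of the Zscan, Zkscan, Nkapl and Pgbd1 genes before the first block, nor Zfp322a, had a pair with the cluster in any list.

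The question of fibroblast against pluripotent state was asked on pairs that the MEF and ES H3K27ac lists share, since only these have counts on both sides. There were 43, which is 76.8% of the MEF cluster pairs and 22.8% of the ES cluster pairs, against 29.4% and 23.7% for the whole lists. In edgeR's quasi-likelihood test, 22 of the 43 were higher and 1 was lower in ES cells at an adjusted p under 0.05, where 17.6% of all 17901 pairs tested were called higher and 14.4% lower (32.0% in all). All 22 had every ES library above every MEF library. The median log2 fold change was 0.61 over the cluster pairs and -0.04 over all pairs. By place, 13 of 21 pairs within the second block were called higher and 0 lower, although 6 of the 21 had estimates below 0, down to -0.64. Within the first block 7 of 20 were called higher and 1 lower, and both pairs to outside were called higher. By content, 11 of the 14 pairs between histone bins were called higher, with a median log2 fold change of 1.13. Between tRNA bins 4 of the 13 were, with a median of 0.55. Of the 8 pairs of a histone bin with a bin without either kind of gene, 3 were called higher, and the median was -0.13. Depth differed as given above, and its part in these changes was not tested beyond the scaling.

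The contact between the bins of H1f2 and of H3c3 and H2bc3 changed most. It had 4.15 and 6.45 CPM in the MEF libraries (5.30 ± 1.63, SD, n = 2), from 15 and 33 counts, and 30.9 and 31.3 CPM in the ES libraries (31.1 ± 0.267, SD, n = 2), from 235 and 240. The libraries of the cell types lay far apart. The log2 fold change was 2.16 (SE 0.19, edgeR adjusted p = 1.4e-13). The next bin over, with H2ac4, H3c2 and H4c2, was joined to that of H3c3 and H2bc3 by the strongest cluster contact of ES cells. It had 6.63 and 9.98 CPM in MEF (8.30 ± 2.36, SD, n = 2) and 34.7 and 29.6 CPM in ES cells (32.2 ± 3.63, SD, n = 2), without overlap, and a log2 fold change of 1.57 (SE 0.17, edgeR adjusted p = 1.9e-10).

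At the other end of the second block the histone bins rose as well. The bin of H4c6 and H1f3 and the bin at 23570001, with 5 genes of H2A, H2B and H3, made contact at 3.59 and 4.50 CPM in MEF and 16.7 and 14.99 CPM in ES cells. Its log2 fold change was 1.60 (SE 0.23, edgeR adjusted p = 1.6e-07). The bin of H4c8, H2ac10 and H3c8 met that of H4c6 and H1f3 at 5.80 and 6.85 CPM in MEF and 24.2 and 19.0 CPM in ES cells, a log2 fold change of 1.41 (SE 0.20, edgeR adjusted p = 1.3e-07). For both contacts every ES library stood above both MEF libraries. The contact of the H4c8 bin with the tRNA bin at 23510001 was at 4.70 and 3.52 CPM in MEF and 14.9 and 14.3 CPM in ES cells. It was the leading outside contact in both cell types and rose by a log2 fold change of 1.52 (SE 0.24, edgeR adjusted p = 7.8e-07).

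The pair called lower joined the bin of Pom121l2, at 21980001, to the tRNA bin at 21990001. MEF libraries had 5.80 and 8.41 CPM and ES libraries 6.31 and 5.87, so the groups overlapped. The log2 fold change was -0.60 (SE 0.23, edgeR adjusted p = 0.04), and without TMM scaling the adjusted p was 0.28. That scaling sets the median change of all pairs near 0. With contact totals alone, the median of all pairs was 0.21, 29 of the 43 cluster pairs were called higher and 0 lower, so the direction of the larger group did not rest on it. DESeq2, which kept 36 of the 43 in its own filter, called 13 higher and 0 lower. With each library left out in turn 16 to 21 were called higher. The lower call was lost in 3 of the 4 fits with a library left out, with an adjusted p of up to 0.61.

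**Figure D3:**
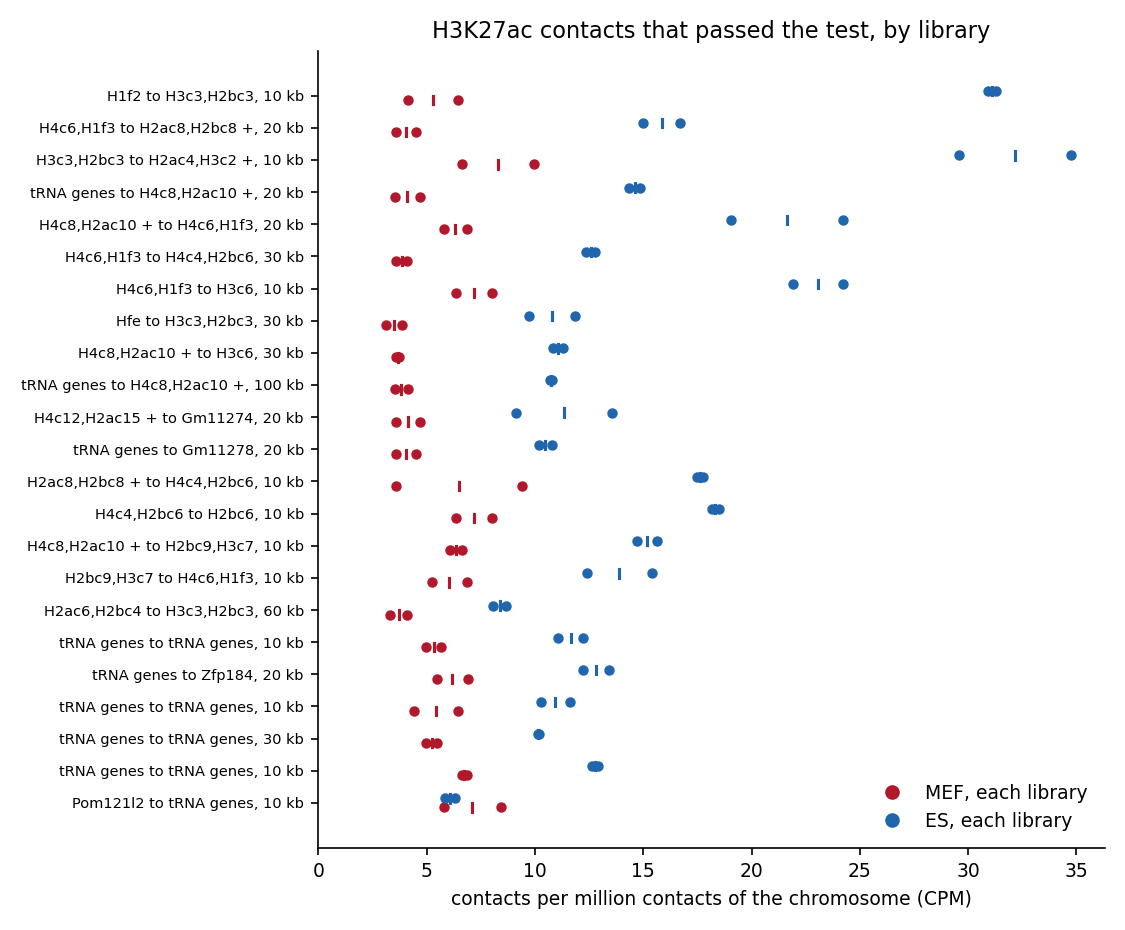
CPM (x axis) of the 23 cluster pairs that passed the test between MEF (red) and ES cells (blue), each point a library and each tick the mean of the 2 libraries, with pairs named by the genes of their bins and the distance in kb, ordered by fold change. In the 22 upper rows the ES libraries lie to the right of the MEF libraries, and in the lowest row they overlap.

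Pairs found on one side only were described by presence. All 4 H3K27ac lists shared 41 cluster pairs. Over these 41 the summed CPM was 198 and 227 in the MEF libraries, 487 and 457 in ES cells, 525, 633 and 601 in TKO at 0 h, and 474, 529 and 503 in TKO at 24 h, so that the MEF libraries were the lowest. These sums are not on the TMM scale. With contact totals alone the median log2 fold change of all pairs in ES against MEF was also above 0, at 0.21. ES and TKO 0 h lists shared 176 cluster pairs, 93.1% and 75.9% of theirs, against 77.6% and 62.8% for the whole lists. A further 112 pairs were in the ES list and both TKO lists and not in the MEF list: 73 within the first block, 21 within the second and 18 from the second to outside. The MEF list held 11 pairs that none of these lists had. All 11 lay within the second block, between 23580001 and 23730000, and 7 of them joined bins without histone or tRNA genes. The strongest joined the bins at 23710001 and 23720001, of which the former is touched by Hfe. It had 10.5 and 6.85 CPM (8.67 ± 2.59, SD, n = 2), from 38 and 35 counts, and was the strongest cluster pair of MEF. In MEF H3K27ac 0 of the 56 cluster pairs had a deposited FDR under 0.1, against 1.84% of the whole list, and in ES cells 18 of 189 (9.52%) did, against 5.90% of the whole list. The difference between these shares was not tested.

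KLF4 contacts of the cluster were most numerous at day 3. The day 3 list held 66 cluster pairs of its 23720 pairs, the day 6 list 4 of 4047 and the ES list 37 of 24589. They made up 5.36%, 2.58% and 3.40% of the KLF4 pairs on chromosome 13. The leading day 3 contact joined the tRNA bin at 21940001 to the bin at 21960001, both touched by Zfp184. Its day 3 libraries stood at 16.4, 11.5 and 10.2 CPM (12.7 ± 3.26, SD, n = 3), and those of day 6 at 6.65, 3.68, 5.23 and 4.34 (4.97 ± 1.29, SD, n = 4). In ES cells it had 9.59, 6.63, 10.5 and 9.03 CPM, where libraries 1 and 2, and 3 and 4, agreed within sampling noise and were each counted as 1 sample (8.93 ± 1.16, SD, n = 2). Day 3 stood above day 6 in every library, and ES cells overlapped both. The leading ES contact joined the tRNA bin at 21990001 to the bin of Prss16 at 22000001, with 9.35, 7.05, 11.0 and 10.7 CPM. At day 6 it had 4.88, 4.33, 5.78 and 5.67 CPM, all below the ES libraries, but the change did not pass the test (edgeR adjusted p = 0.44), and the day 3 list did not hold it. Within the second block the leading day 3 contact was that of H4c4 and H2bc6 with the next bin, at 8.02, 11.1 and 7.91 CPM.

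Of the 21 cluster pairs that day 3 and ES cells share (31.8% of the day 3 and 56.8% of the ES cluster pairs, against 31.1% and 30.0% for the whole lists), 0 were higher and 2 lower in ES cells in edgeR's test, where 3.02% of all 7387 pairs were called higher and 4.18% lower (7.20% in all). The median log2 fold change was -0.18, against 0.00 over all pairs. The pair of the H4c12, H2ac15 and H2bc15 bin with the bin at 21770001 had 9.93, 7.08 and 7.33 CPM at day 3 and 4.67, 6.22, 4.24 and 4.62 in ES cells. The groups did not overlap, and the log2 fold change was -0.75 (SE 0.23, edgeR adjusted p = 0.023). The pair of the bins at 21860001 and 21870001 had 13.7, 9.70 and 7.10 CPM at day 3 and 5.17, 4.56, 7.64 and 5.88 in ES cells, which overlapped, with a log2 fold change of -0.72 (SE 0.21, edgeR adjusted p = 0.021). Both calls were lost without TMM scaling, at adjusted p = 0.093 and 0.065, and when day 3 replicate 1 or 3 or ES replicate 1 or 4 was left out, and 1 was lost without day 3 replicate 2 or ES replicate 3. DESeq2 kept 8 of the 21 in its own filter and called 0.

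Day 6 shared 3 pairs with each of the other KLF4 lists. Against day 3, 2 of the 3 were lower at day 6 and 0 higher, where 4.01% of all 2571 pairs were called lower and 1.32% higher (5.33% in all). One was the Zfp184 contact given above, with a log2 fold change of -0.76 (SE 0.19, edgeR adjusted p = 0.0072). The other joined the tRNA bin at 21850001 to the bin at 21870001, at 8.02, 10.9 and 8.84 CPM at day 3 and 5.32, 3.68, 3.85 and 3.00 at day 6, and had a log2 fold change of -0.80 (SE 0.19, edgeR adjusted p = 0.0059). Both were apart in every library. Leaving out day 3 replicate 2, day 6 replicate 2 or day 6 replicate 4 left 1 call, and DESeq2, which kept 2 of the 3, made 0. In ES cells against day 6, 0 of the 3 passed edgeR's test (0 at an unadjusted p under 0.05), where 3.37% of all 2076 pairs did (2.60% higher and 0.771% lower). DESeq2 gave none of them an adjusted p, and contact totals without TMM called all 3 higher. These totals move the median of all pairs to 0.58 for ES against day 6 and to -0.58 for day 6 against day 3, and the changes given here are relative to the TMM scale. The 3 KLF4 comparisons share libraries with each other. The 4 day 6 libraries differed by no more than counting noise in every pairing and were counted as 4, so that calls with day 6 rest on that spread. With the 4 summed to 1 sample, an alternative chosen after seeing the data, the same numbers of cluster pairs passed, 2 against day 3 (edgeR adjusted p = 0.016 and 0.011) and 0 against ES cells.

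In ES cells the KLF4 contacts lay on H3K27ac contacts. Of the 37 KLF4 cluster pairs 36 were in the ES H3K27ac list (97.3%), which is 19.0% of the latter, against 74.0% and 24.1% for the whole lists. The difference between these shares was not tested. By content, 10 of the 37 joined a tRNA bin to a bin without either kind of gene, 8 joined tRNA bins and 5 joined histone bins. The contact of the H1f2 bin with that of H3c3 and H2bc3, which led the H3K27ac comparison, had 7.38, 7.05, 8.20 and 5.46 CPM in ES KLF4 (7.02 ± 0.271, SD, n = 2) and was not in the day 3 list.

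**Figure D4:**
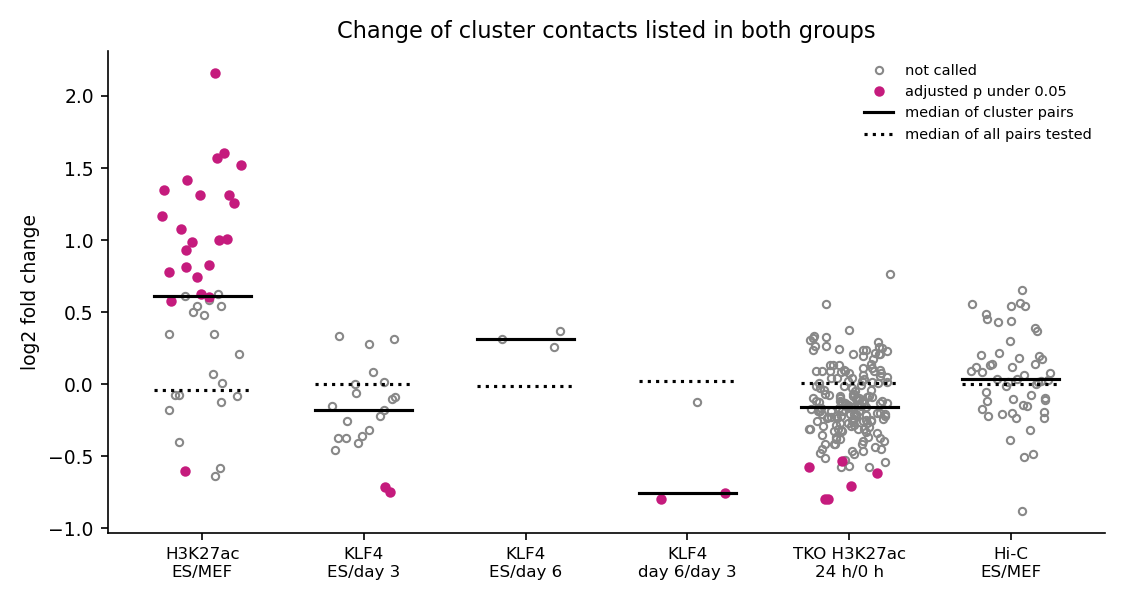
Log2 fold change (y axis) of the cluster pairs listed in both groups of each of the 6 comparisons, with pairs at an edgeR adjusted p under 0.05 filled, the median of the cluster pairs as a solid line and that of all pairs tested as a dotted line. In H3K27ac of ES against MEF the cluster median is 0.61 with 22 pairs called higher, and in TKO at 24 h against 0 h it is -0.16 with 6 called lower.

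In TKO cells 24 h of doxycycline went with lower H3K27ac contacts at a few pairs. The lists shared 176 cluster pairs, 75.9% of those at 0 h and 91.2% of those at 24 h, against 72.6% and 80.4% for the whole lists. In edgeR's test 6 of the 176 fell and 0 rose, where 2.20% of all 67723 pairs were called lower and 0.601% higher (2.80% in all). The share of cluster pairs called is thus near that of all pairs. The median log2 fold change was -0.16, against 0.01 over all pairs, and 124 of the 176 estimates were below 0. Between tRNA bins 2 of 48 fell, with a median of -0.24, and between histone bins 1 of 34, with a median of -0.09.

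The largest of the called changes lay in the first block. The bin at 21860001 met the tRNA bin at 21910001 at 11.2, 11.0 and 9.87 CPM at 0 h and at 6.33, 6.82 and 4.001 at 24 h, a log2 fold change of -0.80 (SE 0.21, edgeR adjusted p = 0.011). The tRNA bin at 21930001 met the Zfp184 bin at 21960001 at 7.83, 11.5 and 7.20 CPM and then at 5.70, 3.62 and 5.34, a log2 fold change of -0.79 (SE 0.23, edgeR adjusted p = 0.027). The remaining called pairs of this block joined 21860001 to 21900001, 21970001 to 22020001 and 21970001 to 21990001, with log2 fold changes of -0.71, -0.62 and -0.57. In the second block the contact of the H3c3 and H2bc3 bin with that of H4c1, H3c1 and H1f1 fell from 23.7, 24.6 and 28.0 CPM (25.4 ± 2.28, SD, n = 3) to 14.6, 16.8 and 17.1 (16.3 ± 0.714, SD, n = 2, with libraries 1 and 3 counted as 1 sample because they agree within sampling noise). Its log2 fold change was -0.54 (SE 0.14, edgeR adjusted p = 0.0071). In all 6 pairs every 24 h library lay below every 0 h library. Without 0 h replicate 2 there were 3 calls, and without 24 h replicate 3 there were 2. With contact totals in place of TMM the median of all pairs was -0.10 and 9 cluster pairs were called lower. DESeq2 kept 29 of the 176 in its own filter and called 0 of them.

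**Figure D5:**
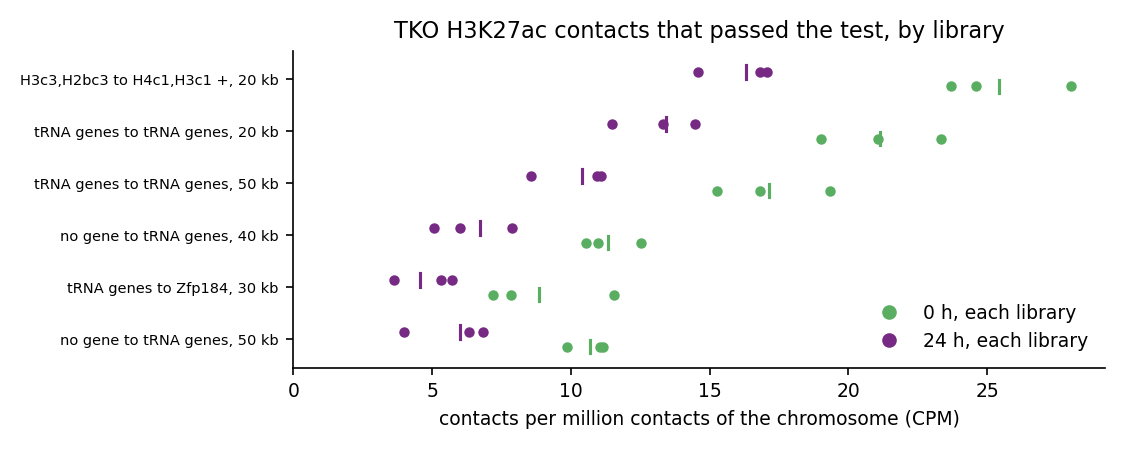
CPM (x axis) of the 6 cluster pairs that passed the test between TKO cells at 0 h (green) and after 24 h of doxycycline (purple), each point a library and each tick the mean over replicates, with pairs named by the genes of their bins and the distance in kb. In each row the 24 h libraries lie to the left of the 0 h libraries.

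Hi-C contacts of the cluster did not pass the test between MEF and ES cells. The 2 lists shared 54 cluster pairs, 75.0% of those of MEF and 50.9% of those of ES cells, against 55.9% and 40.0% for the whole lists. edgeR called 0 of the 54, with 6 at an unadjusted p under 0.05, and DESeq2 called 0. Of all 124544 pairs 0.0289% were called, 0.0201% higher and 0.00883% lower. The median log2 fold change was 0.04, with 0.13 over the 40 pairs in the first block and -0.20 over the 14 in the second. Neither of the pairs between histone bins passed the test. On simulated counts the same fit found 27% of the pairs that were changed 2-fold, so changes of that size could go uncalled at this depth. Without TMM, where the median of all pairs was -0.33, the cluster median was -0.30 and 3 cluster pairs were called lower. Without ES replicate 1 the cluster median was -0.01, so its sign was not stable. The contact of H4c8, H2ac10 and H3c8 with H4c6 and H1f3, in all 9 lists, had a Hi-C signal of 45.0 and 34.6 in MEF and 41.6 and 46.9 in ES cells, which overlap, while its H3K27ac CPM rose as given above. Whether the assays differ in this change was not tested.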

How the data were processed

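Contacts between 10 kb bins were taken from the 9 deposited lists of high-confidence interactions of 21 HiChIP and 4 Hi-C libraries. Per the submitters' processing notes, reads were handled with Bowtie2 2.2.3 and mm10; the other steps are not given in the sources used here. Per the file headers, the authors gave for each pair the raw count in each library, a CPM value, a distance-normalized ratio, and a p-value with its FDR. The deposited HiChIP CPM equals the count scaled to 1000000 contacts of the same chromosome. The Hi-C column of that name does not sum to 1000000 or less and is called signal here, as the authors' scaled signal. The ratio as deposited was not used further, nor was the score that the authors gave each domain. Listed pairs exceed 3 CPM in replicates 1 and 2 (HiChIP) or a signal of 15 (Hi-C), so pairs below these limits have no value.

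Counts of pairs listed in both groups were tested with edgeR 4.0.16 (R 4.3.3; quasi-likelihood, TMM, Benjamini-Hochberg over all pairs tested, adjusted p under 0.05), which selects pairs present on both sides and was checked on simulated counts. Log2 fold changes are on the TMM scale and can be smaller than ratios of CPM. Libraries whose counts agreed within sampling noise (chi-square p of at least 0.05) were summed where other libraries of the same group did differ: ES KLF4 1 with 2 and 3 with 4, and TKO 24 h 1 with 3. No pair of day 6 libraries differed, so there all 4 were kept apart. Alternatives were DESeq2 1.42.0, contact totals, no filter on low counts, every library as a replicate, a replicate block, libraries left out, stricter list limits and widened blocks, and, chosen after seeing the data, TKO 0 h libraries 2 and 3 joined and the 4 day 6 libraries joined. Contacts named are the strongest of each list and class and the largest called changes. A few further called pairs and bins were chosen after their values were seen. The cluster and all gene lists were chosen with earlier results of these data known.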

Additional observations from a re-analysis of the deposited data

Results flagged for a closer look

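The KLF4 contact of the H4c4 and H2bc6 bin with the bin at 23590001 had 9.05 CPM in ES library 3, while the other 3 ES libraries had 6.72 to 7.05 CPM. The gap to the nearest of the others was 0.859 of the whole range. Of 15 values looked at in this way 1 stood out, and chance marks about 1 in 20 groups.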

How the results depend on the processing

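Among the named pairs, only the called pairs with the largest changes were followed through the alternatives, and none of these changed direction. The median log2 fold change of the Hi-C cluster pairs did: it was 0.04 with TMM, -0.30 with contact totals, and -0.0100 (without ES replicate 1) to 0.10 with each library left out. With DESeq2, which gives an adjusted p to fewer pairs, the cluster pairs called were 13 in H3K27ac of ES against MEF (13 higher, 0 lower), 0 in KLF4 of ES against day 3, 0 in KLF4 of day 6 against day 3 and 0 in TKO, and for ES against day 6 it gave no adjusted p. With contact totals without TMM they were 29 in H3K27ac (0 lower), 0 in ES against day 3, 3 in ES against day 6 (3 higher), 3 in day 6 against day 3 (3 lower), 9 in TKO (9 lower) and 3 in Hi-C (3 lower). The filter on low counts changed no count of called cluster pairs. Leaving out each library in turn gave 16 to 23 in H3K27ac (16 to 21 higher, 0 to 3 lower), 0 to 2 in ES against day 3, 0 to 0 in ES against day 6, 1 to 2 in day 6 against day 3, 2 to 6 in TKO and 0 to 0 in Hi-C. A group left with 1 library was assumed to vary like the others. With the replicate number as a block, 23 were called in H3K27ac, 2 in ES against day 3, 0 in ES against day 6, 1 in day 6 against day 3, 7 in TKO and 0 in Hi-C. Libraries of the same number did not deviate together (correlations of -0.05 to 0.04). Counting noise in single pairs could hide a shared deviation, so whether the numbers pair the samples was not settled. With TKO 0 h libraries 2 and 3 joined 6 were called, and with the 4 day 6 libraries summed to 1 sample 2 were called against day 3 and 0 against ES cells, both alternatives chosen after seeing the data.

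Stricter limits shorten the lists by construction. At a deposited FDR under 0.1 the pairs within the first block, within the second and from the second to outside were 0, 0 and 0 in MEF H3K27ac, 4, 12 and 2 in ES H3K27ac, 28, 10 and 6 in TKO at 0 h, and 14, 5 and 3 in TKO at 24 h. The KLF4 lists had 0, 0 and 0 at day 3, 0 and 0 within the blocks at day 6, and 0, 0 and 0 in ES cells. MEF Hi-C had 3 and 3, and ES Hi-C 10, 0 and 1. With a mean signal of at least 2 times the lowest of the list, the first block held 4 pairs in MEF H3K27ac, 55 in ES H3K27ac, 92 and 67 in TKO at 0 h and 24 h, 29 at day 3, 22 in MEF Hi-C and 47 in ES Hi-C. The second block then held 10 in MEF H3K27ac, 32 in TKO at 24 h, 0 at day 6 and 13 in ES Hi-C. Outside pairs of the second block were then 0, 6, 17 and 12 in the H3K27ac lists of MEF, ES and TKO at 0 h and 24 h, and 0 at day 3 and in ES Hi-C, and the first block had 0 in TKO at 0 h. Blocks widened by 1 bin gave 6 outside pairs of the second block in MEF H3K27ac, 5 at day 3, 1 at day 6, 6 in ES KLF4, 5 in MEF Hi-C and 14 in ES Hi-C.

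When a bin could lie 1 bin away, MEF and ES H3K27ac shared 87.5% and 64.6% of their cluster pairs, day 3 and ES KLF4 68.2% and 78.4%, day 6 and ES KLF4 100% and 21.6%, and day 3 shared 16.7% with day 6. TKO at 0 h and 24 h then shared 97.0% and 96.9%, ES and TKO 0 h H3K27ac 98.9% and 95.3%, and MEF and ES Hi-C 98.6% and 80.2%. Most single pairs had few counts, and the listing limits hide pairs below them, so absence from a list does not show absence of contact.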
